A study of Arabidopsis thaliana with 18 samples.

Results

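BRIP1 and BRIP2 are BRM-interacting proteins of *Arabidopsis thaliana*. They belong to SWI/SNF complexes built around the ATPase BRAHMA (BRM). Such complexes use ATP to slide or evict nucleosomes and so open or close promoters to other factors. They are known in seedlings for their part in growth, hormone responses and the timing of development, and the BRIP proteins resemble the human GLTSCR proteins of non-canonical BAF. The sites described here were BRIP2 peaks in plants carrying *brm-1*, a loss-of-function allele of *BRM*, at which no BRIP1 peak was called in the same mutant background.

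The series comprised 18 samples of 14-day-old seedlings, and 4 chromatin immunoprecipitation libraries with a peak list each were used. These were BRIP2-GFP in *brm-1* (2 replicates) and BRIP1-GFP in *brm-1* (2 replicates), all precipitated for the green fluorescent protein (GFP) tag. The promoter that drives each fusion and the number of independent lines are not given in the sources used here. No library from plants without a fusion was used, so signal that does not depend on the fusion cannot be told apart from binding. The antibody field of BRIP1-GFP replicate 2 reads none, against its title, and that of the BRIP2-GFP input names the GFP antibody. The lists held 7877 and 6288 peaks on chromosomes 1 to 5 for BRIP2-GFP, and 3637 and 5343 for BRIP1-GFP.

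The members were chosen by peak calls. A peak of BRIP2-GFP replicate 1 was taken when it overlapped a peak of BRIP2-GFP replicate 2 by at least 1 bp and no peak of either BRIP1-GFP list. Of 5483 BRIP2 peaks found in both BRIP2 libraries, 1166 met this rule, which is 21.3% (95% Wilson interval 20.2 to 22.4, counting error over sites only). Another 1302 overlapped a peak of 1 BRIP1 library, and 3015 overlapped peaks of both, here called shared sites. The number rested on single libraries: 2344 sites were left without a BRIP1 peak when BRIP1-GFP replicate 2 was left out, and 2953 when BRIP2-GFP replicate 2 was left out. It also rested on thresholds, with 204 sites (7.10%) when the 4 lists were cut to equal length and 102 (3.73%) when BRIP2 peaks had to reach a −log10 q of 10 in both libraries. Positions, sequences and nearest genes played no part in the rule, while the strength of the peaks did through the calling threshold.

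The 12 windows of 61 bp below show what DNA lay under the summits, the positions of highest pileup. They were picked from the members that rank best by fold, from members holding a motif discussed below, and from microRNA genes, and only where no base of the window lies in an annotated gene. Sequences are the plus strand of the TAIR10 reference, 5′ to 3′, centred on the summit of BRIP2-GFP replicate 1, with matches to the searched motifs in capitals (A runs are not capitalised), and negative distances are upstream of the TSS. The first 4 are the best-ranked sites that qualified.
AT3G48760, chr3:18074757-18074817, summit at −918 bp from the transcription start site (TSS), W-box: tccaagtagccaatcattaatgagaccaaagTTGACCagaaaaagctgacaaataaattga
PAB6, chr3:5561178-5561238, at −82 bp, no match: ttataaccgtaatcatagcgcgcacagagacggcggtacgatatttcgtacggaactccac
AT3G14100, chr3:4672704-4672764, at −182 bp, no match: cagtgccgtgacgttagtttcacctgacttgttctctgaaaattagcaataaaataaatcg
RGL2, chr3:822700-822760, at −1078 bp, TCP core: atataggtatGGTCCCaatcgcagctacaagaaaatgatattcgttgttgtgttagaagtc
RKP, chr2:9370593-9370653, at −1162 bp, G-box and CRT/DRE core: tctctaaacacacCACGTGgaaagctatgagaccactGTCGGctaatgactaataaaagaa
EXO70D1, chr1:27282917-27282977, at −681 bp, G-box among 4 motifs: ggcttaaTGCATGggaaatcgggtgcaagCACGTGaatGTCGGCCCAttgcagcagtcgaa
GRF2, chr1:29461291-29461351, at −70 bp, TCP core and auxin response element: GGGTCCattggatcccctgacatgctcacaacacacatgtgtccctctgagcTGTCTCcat
NF-YA1, chr5:4053808-4053868, at −169 bp, TCP core: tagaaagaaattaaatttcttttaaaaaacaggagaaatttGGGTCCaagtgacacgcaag
AT3G55410, chr3:20540962-20541022, at −277 bp, W-box: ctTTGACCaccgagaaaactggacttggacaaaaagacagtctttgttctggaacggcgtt
PLL4, chr2:12408247-12408307, at −38 bp, TATA motif: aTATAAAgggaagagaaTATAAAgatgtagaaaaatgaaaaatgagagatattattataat
MIR408, chr2:19319411-19319471, at −373 bp, no match: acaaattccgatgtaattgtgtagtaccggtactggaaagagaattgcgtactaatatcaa
MIR172e, chr5:23988963-23989023, 521 bp downstream, TCP core and W-box: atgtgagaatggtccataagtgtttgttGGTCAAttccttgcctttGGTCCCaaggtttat

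The sites without a BRIP1 peak were the weaker BRIP2 sites. Their fold, the pileup of fragments over the control as the peak caller gave it, had a median of 2.31 in BRIP2-GFP replicate 1 and 2.31 in replicate 2, against 3.32 and 3.18 at shared sites. From the 5th to the 95th percentile the members ran from 1.82 to 2.998 in replicate 1 and from 1.90 to 2.93 in replicate 2. Their median width was 447.5 bp, against 793 bp at shared sites. Of the replicated BRIP2 peaks with a fold of 3.0 or more in replicate 1, 56 of 2294 (2.44%) had no BRIP1 peak, and of those under 2.0, 194 of 285 (68.1%) had none. Because the calls selected the sites, these values describe them and were not tested.

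**Figure D1:**
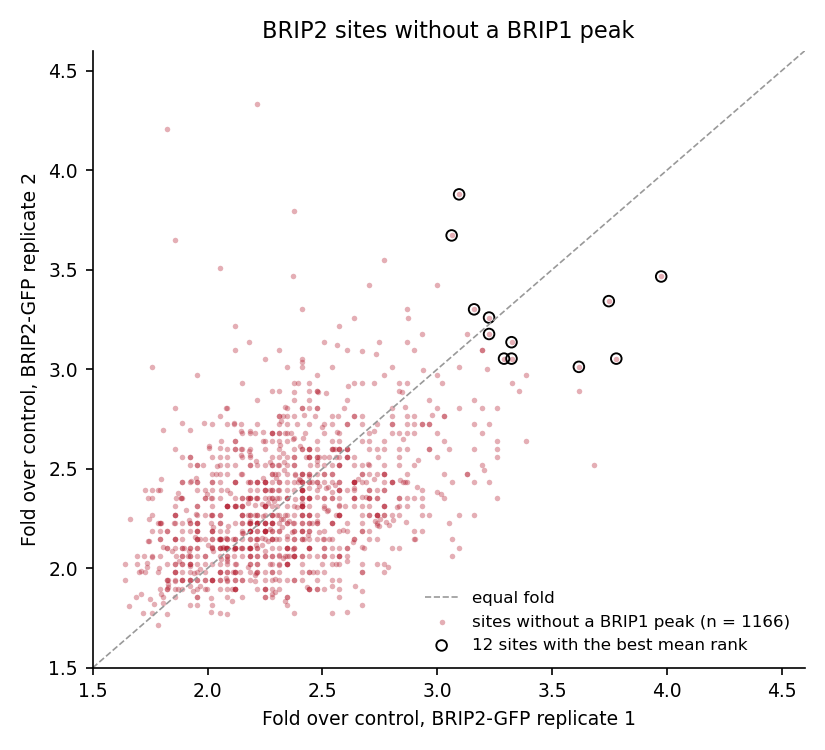
Fold over control of the 1166 BRIP2 sites without a BRIP1 peak in BRIP2-GFP replicate 1 (horizontal) and replicate 2 (vertical), 1 point per site, with circles around the 12 sites of best mean rank. Most points lie between 1.8 and 3.0 on both axes, and the circled sites lie above 3.0 on both.

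The summits of the 2 BRIP2 libraries lay close together at most members, and the libraries ranked the members less closely. The rule required overlapping peaks in both libraries, so closeness of the summits was in part selected and is given as a description. The median distance between the summits of the 2 replicates was 63 bp at sites without a BRIP1 peak and 44 bp at shared sites. The 95th percentiles were 487 and 527 bp. Replicate 2 values are those of its strongest overlapping peak, at its own summit. The rank correlation of the fold between replicates was 0.44 over the 1166 members and 0.83 over the 3015 shared sites, given as a description, since the members span a narrow range of fold.

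The pileup behind each fold could be recovered as a whole number of fragments. In BRIP2-GFP the background control was 29.7 fragments in replicate 1 and 23.2 in replicate 2, and the members had medians of 71.0 and 55.0 fragments. The series lists a single input library for each fusion in *brm-1*. The folds of the replicates may therefore rest on the same control. In BRIP1-GFP the control at background was 31.5 and 41.2 fragments, and the lowest fold of a peak called over that background was 1.69 in replicate 1 and 1.59 in replicate 2. How much BRIP1 signal lay below the call at each member cannot be read from peak lists.

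Distance to the nearest BRIP1 peak varied widely. The median gap was 5118.5 bp, with 65 members within 500 bp of a BRIP1 peak, 188 within 1000 bp and 355 farther than 10 kb. The closest members were upstream of *AT1G06170*, which encodes a basic helix-loop-helix protein (gap 10 bp, fold 2.44 in replicate 1 and 2.35 in replicate 2), by *AT4G35485*, an uncharacterized gene (47 bp, fold 1.86 and 1.98), and by *PCK1*, which encodes the gluconeogenic enzyme phosphoenolpyruvate carboxykinase (173 bp, fold 2.37 and 3.47). The next, at *AT2G35290*, had a gap of 207 bp and a fold of 2.12 and 3.22. The replicate 1 summit by *AT4G35485* lay in the 3′ UTR of *AT4G35480*. Just outside the rule stood peaks with overlaps of 9 bp at *AT5G66770* (a GRAS family gene, fold 2.02 and 1.98), 29 bp at *AT4G38900* (a basic leucine zipper gene, 2.31 and 2.27), 43 bp at *TCP3* (1.95 and 2.23) and 52 bp at *AT2G46930* (2.15 and 2.104). In replicate 2 the 4 sites just outside lay between 1.98 and 2.27. Inside the rule, *AT1G06170*, *PCK1* and *AT2G35290* lay above them in replicate 2, and *AT4G35485* (1.98) did not. The replicate 2 summits at *PCK1* and *AT2G35290* were at −1123 and 18 bp from the nearest TSS, against −20 and 757 bp in replicate 1. The rule did not compare replicate 2 peaks with BRIP1 peaks, so these folds need not come from the same position.

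In position the sites without a BRIP1 peak were closer to gene starts than shared sites. Of the members, 649 of 1166 summits (55.7%, 95% interval 52.8 to 58.5) lay within 500 bp of the TSS of a protein-coding or microRNA gene, against 1077 of 3015 shared summits (35.7%, 34.0 to 37.4). The difference was 19.9 percentage points (95% Newcombe interval 16.6 to 23.2). Sites with a peak of 1 BRIP1 library lay between, at 44.3%, and 21.7% of the bases of the 5 nuclear chromosomes are that close to a TSS. With the summit of BRIP2-GFP replicate 2 in its place the shares were 55.8% and 35.5%.

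The excess sat on both sides of the TSS. Within 100 bp of it lay 25.9% of member summits and 13.3% of shared summits, a difference of 12.6 points (9.90 to 15.5). The first 500 bp upstream held 34.2% and 24.3%, and the first 500 bp downstream 21.2% and 11.3%. Far from a TSS, within genes or between them, the order was turned: 12.95% of member summits and 25.6% of shared summits were over 2000 bp from a TSS (difference −12.6 points, −15.0 to −10.1). The median signed distance was −82 bp for members and −310 bp for shared sites, negative values being upstream.

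**Figure D2:**
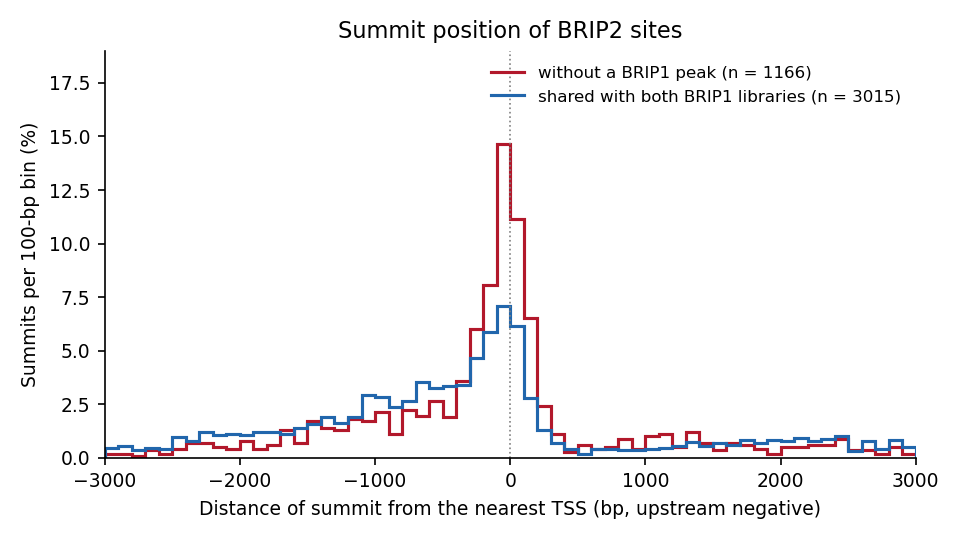
Percent of summits in each 100-bp bin of distance from the nearest TSS (upstream negative), for BRIP2 sites without a BRIP1 peak (red) and sites shared with both BRIP1 libraries (blue). The red line is the higher one in the bins next to the TSS and the lower one in most bins farther than 500 bp upstream.

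At shared sites the part near a TSS fell as fold rose, so the sites were compared within bands of fold. Sites with a peak of 1 BRIP1 library showed no such fall, at 44.4% in each band. Among peaks with a fold of 2.0 to under 2.5 in replicate 1, 55.0% of 620 members and 43.2% of 303 shared sites lay within 500 bp of a TSS (difference 11.8 points, 4.90 to 18.5). From 2.5 to under 3.0 the shares were 59.1% of 296 and 38.6% of 694 (20.5 points, 13.7 to 27.0). At 3.0 and over they were 48.2% of 56 and 33.8% of 1986 (14.4 points, 1.71 to 27.4). The direction was also the same on each of the 5 chromosomes, with differences from 16.0 points on chromosome 1 to 28.9 points on chromosome 4. Among members with a −log10 q of at least 10 in both BRIP2 libraries, of which there were 102, the difference was 9.33 points and its interval reached zero (−0.07 to 19.2).

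**Figure D3:**
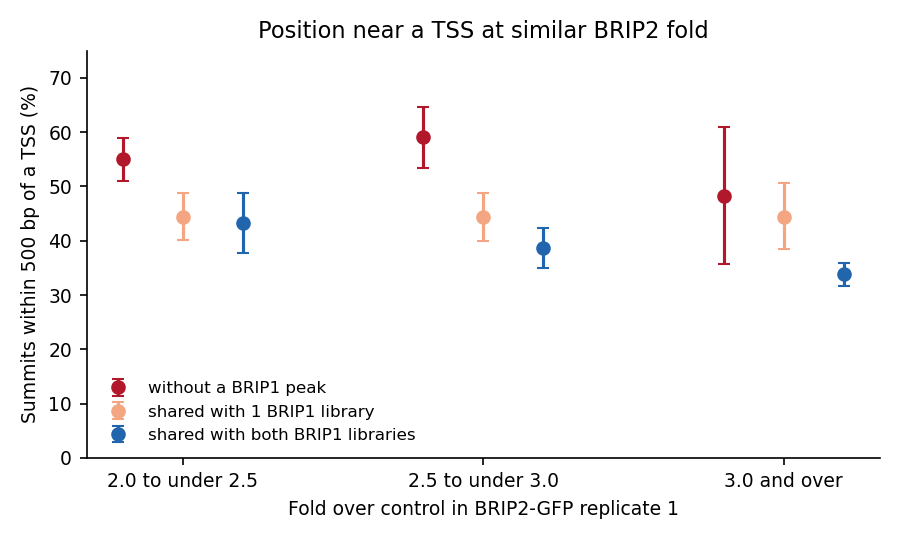
Percent of summits within 500 bp of a TSS in 3 bands of fold in BRIP2-GFP replicate 1, for sites without a BRIP1 peak (red), shared with 1 BRIP1 library (orange) and shared with both (blue), with 95% Wilson intervals. In each band the red point is the highest, at 55.0%, 59.1% and 48.2%. At 3.0 and over the red interval (35.7 to 61.0) overlaps the orange one (44.4%, 38.4 to 50.6).

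The annotation under the summits followed the same order. Among members, 61.1% of summits were intergenic, against 70.9% of shared summits (difference −9.76 points, −13.01 to −6.55). The interval of this difference included zero at a fold of 2.5 to under 3.0 (−3.87 points, −10.4 to 2.49) and at a −log10 q of at least 10 (−7.38 points, −17.2 to 1.41). The 5′ untranslated region (5′ UTR) held 247 member summits (21.2%) and 329 shared summits (10.9%), a difference of 10.3 points (7.74 to 12.9), while 4.91% of the nuclear bases carry that annotation. Coding exons held 5.15% and 2.39% of summits, although they make up 28.3% of the bases. Exons of non-coding genes held 3.002% and 5.67%, introns 2.66% and 4.25%, and 3′ untranslated regions 6.86% and 5.87%. The interval of the last difference included zero (0.99 points, −0.60 to 2.77). Summits downstream of the nearest TSS made up 37.5% and 32.1% (5.41 points, 2.19 to 8.66). The interval of this downstream difference included zero in each band of fold taken alone.

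The arrangement of the flanking genes was compared next. Summits between a pair of genes that point away from each other made up 27.4% of members and 29.6% of shared sites (−2.19 points, −5.18 to 0.89). Summits between genes that face each other were 3.52% and 7.60% (−4.08 points, −5.43 to −2.57). The intergenic stretches that held members were shorter, with a median of 1953 bp between genes in tandem, against 3028 bp for shared sites.

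Known plant promoter elements were then counted within 100 bp on each side of the summit, on both strands, and also in windows of that length centred 100 bp upstream of the TSS of 27443 protein-coding genes. The G-box (CACGTG), read by basic helix-loop-helix and basic leucine zipper factors, was in 16.6% of member windows, 19.5% of shared windows and 5.66% of promoters. W-box cores, read by WRKY factors, were in 14.6%, 14.4% and 10.4% as TTGACC and in 23.2%, 20.5% and 16.0% as TTGACT. The GAGA repeat (GAGAGAGA) was in 8.75%, 9.35% and 4.18%. Over all sites the member windows thus held these elements at shares above those of all promoters. For both W-box cores and the GAGA repeat the intervals of the difference from shared sites included zero. Over 500 bp from a TSS the GAGA repeat was in 3.29% of member windows, under the promoter share. Shared windows there held it in 6.91% (−3.63 points, −5.35 to −1.44). Site II, the telo-box, the evening element, TATAAA and A runs, given below, were lower in members than in promoters. The part of GC content, also given below, was not tested.

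The TCP core (GGNCCC, overlapping in part with site II) separated the sites from shared ones. It is read by TCP factors, which control cell proliferation in leaves and shoots. It was in 143 of 1166 member windows (12.3%, 10.5 to 14.3) and in 763 of 3015 shared windows (25.3%, 23.8 to 26.9), with 17.1% at sites shared with 1 BRIP1 library and 6.51% in promoters. The difference was −13.04 points (−15.4 to −10.5). It stayed negative, with an interval clear of zero, in the 3 bands of fold, at 12.9% against 21.5% for 2.0 to under 2.5, 14.9% against 22.9% for 2.5 to under 3.0, and 10.7% against 26.7% for 3.0 and over. It was also so among summits within 500 bp of a TSS (12.2% of members and 22.8% of shared sites) and farther out (12.4% and 26.7%). Printed windows with a match are those at *RGL2*, *GRF2*, *NF-YA1* and *MIR172e*.

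**Figure D4:**
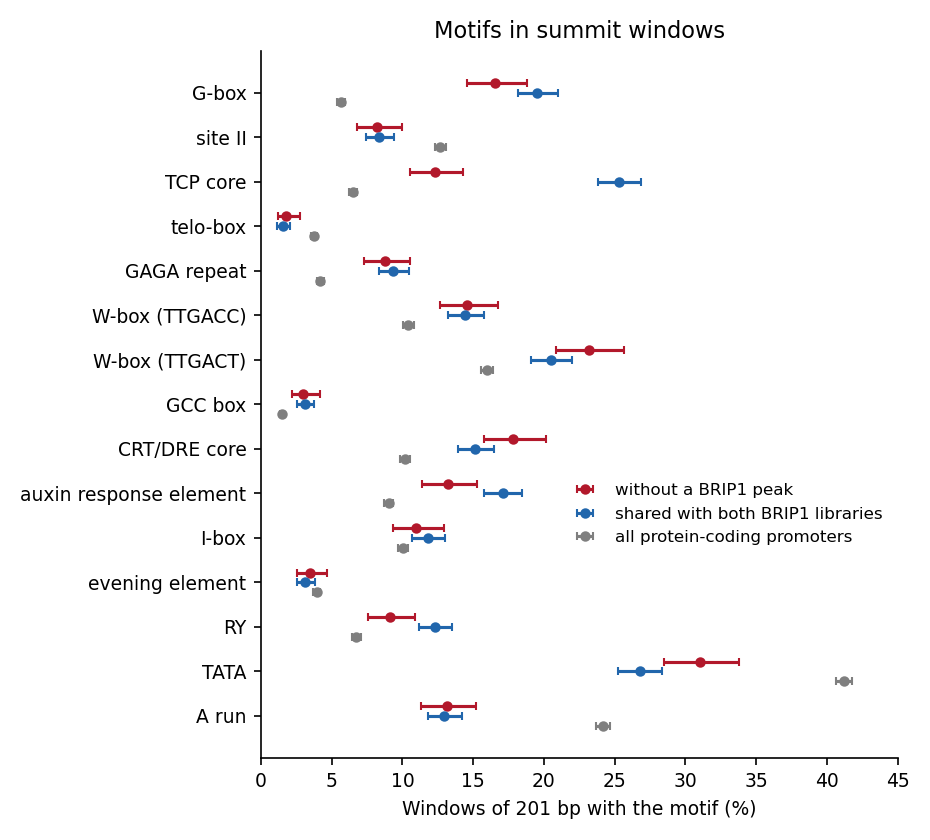
Percent of summit windows (100 bp each side) with each of 15 motifs on either strand, at BRIP2 sites without a BRIP1 peak (red), at sites shared with both BRIP1 libraries (blue) and in protein-coding promoters (grey), with 95% Wilson intervals. The red and blue intervals lie farthest apart for the TCP core, at 12.3% and 25.3%.

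Differences of the other motifs were smaller. The G-box (−2.98 points), the auxin response element TGTCTC (13.2% and 17.1%, −3.87 points), the seed-related RY element CATGCA (9.09% and 12.3%, −3.21 points), the cold and drought element core CCGAC (17.8% and 15.2%, 2.68 points) and TATAAA (31.0% and 26.8%, 4.28 points) had intervals clear of zero over all sites. None of these 5 kept both its direction and an interval clear of zero in all 3 bands of fold, and the sign of the G-box difference turned in each band (3.90, 2.01 and 2.74 points). Over all sites, intervals of the difference included zero for site II (TGGGCC, 8.23% and 8.36%), the telo-box (AAACCCTA, 1.80% and 1.53%), the GCC box (GCCGCC, 3.002% and 3.08%), the I-box (GATAAG, 11.0% and 11.8%), the evening element (AAATATCT, 3.43% and 3.12%) and A runs (AAAAAAAA, 13.1% and 12.97%). In single bands TTGACT (24.3% and 14.6%, fold 2.5 to under 3.0), site II (9.35% and 4.95%, 2.0 to under 2.5) and the evening element (7 of 56 members and 48 of 1986 shared windows, 3.0 and over) were higher at members, with intervals clear of zero. In promoters the shares were 9.02% for TGTCTC, 6.73% for RY, 10.2% for CCGAC, 41.2% for TATAAA, 12.7% for site II, 3.75% for the telo-box, 1.46% for the GCC box, 10.04% for the I-box, 3.93% for the evening element and 24.2% for A runs. The median GC content of the windows was 35.8% for members, 36.3% for shared sites and 31.3% for promoters.

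The 1166 sites had 1144 nearest genes, 1137 protein-coding and 7 microRNA genes, which is 4.12% of the 27770 genes considered. The nearest genes of shared sites were 2673, or 9.63%. Of the members' genes 145 were also nearest to a shared site, 12.7% of the members' list and 5.42% of the shared one. No gene was nearest to 3 members and 22 were nearest to 2, among them *RGL2*, *PUB19*, *ACS6*, *WRKY46* and *CYP86A8*, examples chosen after their values had been seen. At *CYP86A8*, a fatty acid hydroxylase gene of cuticle formation, the pair lay 1130 and 2189 bp downstream of the TSS with a fold of 2.90 and 3.19 in replicate 1 and 3.09 at each in replicate 2. The equal replicate 2 values may come from a single peak that overlaps both members.

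The strongest members lay at genes of varied function. The site of best mean rank was at −918 bp from the TSS of *AT3G48760*, a DHHC-type zinc finger gene of the family that attaches fatty acids to proteins, with a fold of 3.98 in replicate 1 and 3.47 in replicate 2. Its summit had 121 fragments (95% Poisson interval 100 to 145) over 29.7 in replicate 1 and 83 (66.1 to 103) over 23.2 in replicate 2, and the nearest BRIP1 peak was 16679 bp away. Next was *PAB6*, a poly(A)-binding protein gene, with a summit at −82 bp and a fold of 3.75 and 3.34. *AT3G14100*, an RNA-binding protein gene, followed with 3.32 and 3.14 at −182 bp.

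Among the next were genes of vesicle traffic, hormone response and metabolism. *RAB7B*, a small GTPase gene of late endosome and vacuole traffic, had its summit in the 5′ UTR, 53 bp past the TSS, with a fold of 3.23 and 3.26. *AT4G39050*, a kinesin gene, had 3.10 and 3.88, and *AT3G52790*, a LysM domain gene, 3.23 and 3.18. The 2 values at *AT4G39050* belong to different summits, at −1215 bp in replicate 1 and −487 bp from the nearest TSS in replicate 2. A BRIP1 peak lay 401 bp from that site. *AT1G15120*, for the hinge protein of the respiratory cytochrome bc1 complex, had 3.16 and 3.30, and *AT3G55410*, for the E1 subunit of 2-oxoglutarate dehydrogenase in the citric acid cycle, had 3.29 and 3.05. The remaining sites of the 12 were at *AT5G11000* (unknown function, 3.06 and 3.67, at −2 bp), *AT3G28690* (a protein kinase, 3.32 and 3.05) and *AT1G35510* (an O-fucosyltransferase, 3.62 and 3.01). Of these 12 sites 8 were on chromosome 3, while 20 of the best 100 and 19.1% of all members were.

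The remaining one of the 12 sites had its nearest TSS at *RGL2*, a DELLA repressor of gibberellin responses, 1078 bp downstream of it, but lay at the 3′ end of *BRIP1* itself. The peak, chr3:822517-822953, reached into the last bases of *BRIP1* (*AT3G03460*, chr3:822896-824546, minus strand), and its fold was 3.78 in replicate 1 and 3.05 in replicate 2. In BRIP1-GFP replicate 2 the control over the start of *BRIP1* was far above background, with 246 fragments under the peak at chr3:824516-825097, against 41.2 at background. In BRIP2-GFP replicate 1 the control over the start of *BRIP2* (*AT5G17510*) was raised in the same way, at 118 fragments against 29.7. The fold over control at the gene that is tagged in a line is thus not on the scale of the rest of the genome, and its part in the missing BRIP1 call beside *BRIP1* was not tested.

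Members far from any BRIP1 peak lay at genes of several kinds. Of the 6 best-ranked sites with no BRIP1 peak within 10 kb, *AT3G48760*, *AT3G14100* and *AT3G28690* are given above, the last with a gap of 76151 bp. *CSLD2*, a cellulose synthase-like gene needed for root hair walls, had a site at −432 bp with a fold of 3.19 and 3.09 and a gap of 62158 bp. The site nearest to the TSS of *AT4G24805*, a methyltransferase gene, had 3.32 and 2.93, and its summit was in the 3′ UTR of the neighbouring *AT4G24810*. *EXO70H3*, an exocyst subunit gene, had a site in its own 3′ UTR, with 2.93 and 3.18.

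Sorted by annotated product, the nearest genes covered all 21 classes considered, and the share of each class is to be read against the 4.12% of all genes. The classes were text matches, can overlap, and were compared by counts with no test. The genes named for a class are the best-ranked ones with a summit within 1000 bp of the TSS unless stated, so a stronger site farther out can be missing. Protein phosphatases, which reverse phosphorylation by kinases, had the highest share (12 of 127 genes, 9.45%), and vesicle traffic and GTPases followed (26 of 334, 7.78%). Next came hormone-related genes (20 of 273, 7.33%), transcription factors (103 of 1842, 5.59%), cell wall genes (27 of 500, 5.40%), the cytoskeleton (14 of 274, 5.11%), protein kinases (65 of 1388, 4.68%) and transporters and channels (36 of 800, 4.50%). At shared sites the order was another one, led by hormone-related genes (74 of 273, 27.1%) and transcription factors (346 of 1842, 18.8%), while vesicle traffic and GTPases counted 26 of 334 genes, or 7.78%, at both kinds of site.

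**Figure D5:**
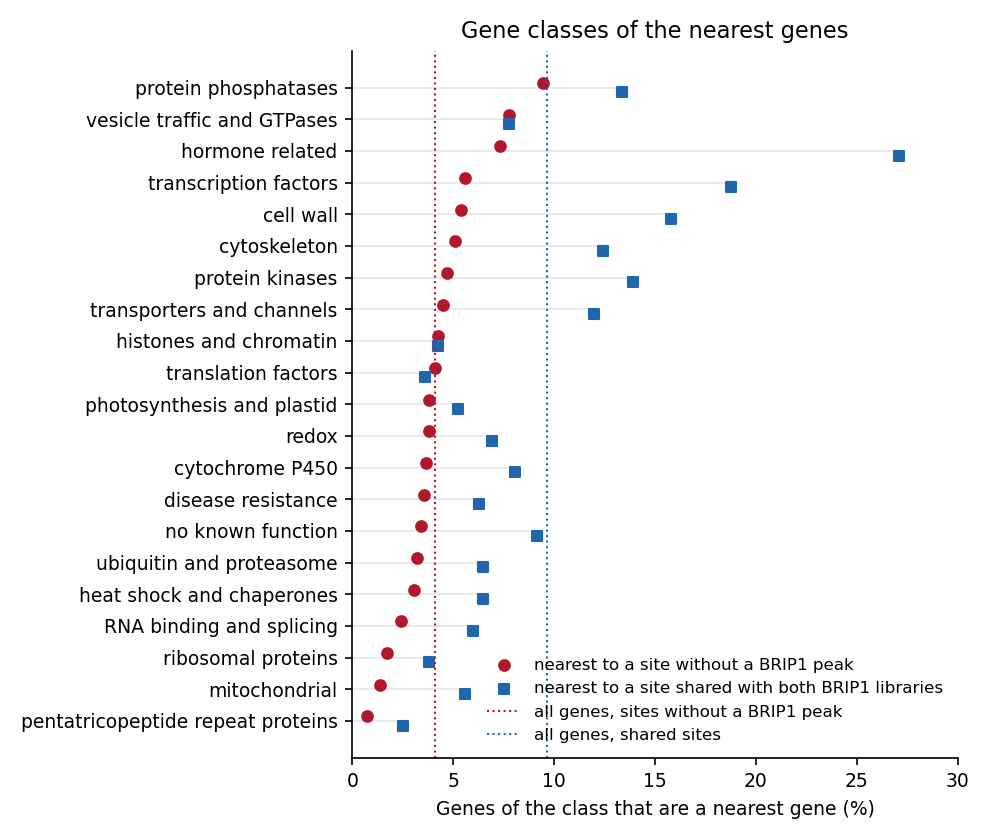
Percent of the genes of each class that are nearest to a BRIP2 site without a BRIP1 peak (red circles) or to a site shared with both BRIP1 libraries (blue squares), with dotted lines at the shares over all genes, 4.12% and 9.63%. Hormone-related genes and transcription factors lie far right of the blue line as squares (27.1% and 18.8%), and closer to the red line as circles (7.33% and 5.59%).

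The 26 vesicle traffic genes ran from fusion machinery to tethers, with 18 of the 26 sites within 500 bp of the TSS. Exocyst subunits, which tether secretory vesicles at the plasma membrane, were *EXO70H3*, *EXO70D1* (at −681 bp, 3.23 and 2.72), *SEC15B* (2.31 and 2.89) and *EXO70F1* (2.29 and 2.34). Syntaxins, which drive membrane fusion, were *SYP132* of the plasma membrane (at −38 bp, 3.16 and 2.60), *SYP111* of the cell plate (2.41 and 2.23), *SYP61*, *SYP52* and *SYP21*. The Rab GTPases *RABA2c*, *RABA4B*, *RABA1f* and *RABA1g* and the clathrin heavy chain gene *AT3G11130* (2.05 and 1.98) were also present. Over the 26 genes the fold ran from 1.82 to 3.23 in replicate 1 and from 1.88 to 4.21 in replicate 2. Genes of this class other than *RAB7B*, *EXO70D1*, *SYP132* and *EXO70H3* were named after their values had been seen.

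Of the phosphatase sites 11 of 12 lay within 500 bp of the TSS, against 55.7% of all members, a count of few genes that was not tested. *FYPP3*, the catalytic subunit of a phytochrome-associated phosphatase, had 2.998 and 2.68 at 31 bp downstream, the protein phosphatase 2C gene *AT3G62260* had 2.56 and 2.60, and *ATB BETA*, a regulatory subunit of protein phosphatase 2A, had 2.87 and 2.35. Of the kinases, *BRI1*, the brassinosteroid receptor, had a site in its 5′ UTR, 77 bp past the TSS (chr4:18324399-18324784), with 2.70 and 3.42. *AT2G24360* had 2.998 and 3.42 at −152 bp. The kinase class was a text match and also took in several genes that encode no protein kinase. Examples are *PCK1*, the diacylglycerol kinase genes *DGK2* and *DGK5*, and the phosphofructokinase gene *PFK7*.

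Hormone genes included *ARF6*, an auxin response factor that promotes flower maturation (at −963 bp, 2.93 and 2.72), the auxin efflux carrier family gene *AT5G01990* (180 bp downstream, 2.64 and 2.76) and *BRH1*, a brassinosteroid-responsive RING gene (2.83 and 2.35). Within 1000 bp of a TSS the transcription factor class was led by *AT3G48760*, *ARF6* and *AT1G11020* (2.87 and 2.72), and neither *AT3G48760* nor *AT1G11020* is a DNA-binding factor by its product: the class takes any zinc finger. The same holds for the translation class, 8 of 195 genes, whose leading genes were *ELF5A-1* (2.39 and 2.72), a translation factor, and *AT1G71080* (2.38 and 2.43) and *AT2G42780* (2.31 and 2.48), which are transcription elongation factors. Of the 103 genes in the transcription factor class, 46 had a site within 500 bp of the TSS.

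Chromatin genes made up 11 of 259 (4.25%), near the share of all genes. *AT3G14750*, annotated with a structural maintenance of chromosomes domain, had 2.90 and 2.72, and *HD2C*, a plant-specific histone deacetylase, 2.41 and 2.43. Of 20 genes for SWI/SNF subunits, *BRM* and *BRD2* were nearest to a member and *BRD13* to a shared site. Over all genes the shares were 4.12% and 9.63%, and so few genes were not tested. *ARP4*, nearest to no member, had a BRIP2 summit in both BRIP2 libraries (1.95 and 2.45) and none for BRIP1. *BRD1* had a BRIP2 summit in replicate 1 only (2.57). *SWP73A* and *BSH* had a BRIP1 summit in BRIP1-GFP replicate 2 (2.11 and 2.18). At *BRM* (*AT2G46020*) the peak chr2:18922650-18922998 lay in the 5′ UTR, 304 bp past the TSS, with 2.57 in replicate 1 and 2.60 in replicate 2, and no BRIP1 peak was called within 1000 bp of the gene in either BRIP1 library. *BRD2* (*AT1G76380*), a bromodomain subunit gene, had its summit 23 bp upstream with 1.79 and 2.23. The replicate 1 value was below the 5th percentile of the members (1.82), and the replicate 2 value was near their median (2.31).

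The members included sites nearest to 7 of the 326 microRNA genes considered, a lower share than the 4.12% over all genes. Distances below are from the replicate 1 summit unless stated. *MIR408*, whose microRNA limits copper proteins, had 2.70 and 2.52 at −373 bp, and *MIR398c*, which targets copper/zinc superoxide dismutases, had 2.02 and 2.104 at 1083 bp downstream. The *MIR398c* summit was in a coding exon within the gene *AT5G14570*. *MIR172e* and *MIR172b*, whose product represses APETALA2-like genes during phase change and flowering, had 2.57 and 2.43 at 521 bp downstream and 2.18 and 2.23 at 1695 bp downstream. The replicate 2 summit of the *MIR172b* site was nearest to another TSS, at −1702 bp from that of *AT5G04270*. *MIR858a*, which targets MYB genes, had 2.12 and 2.15 at −385 bp, and *MIR157a*, which targets SPL genes, 1.92 and 1.94 at −2268 bp. At *MIR404* the replicates were far apart in fold, at 1.86 and 3.65, and their summits also differed. The replicate 1 summit was 1845 bp downstream and the replicate 2 summit 2693 bp downstream of its nearest TSS, with a BRIP1 gap of 437 bp. Only the sites at *MIR408*, *MIR858a* and *MIR172e* lay within 1000 bp of the start.

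Leading genes of the cell wall, transporter, cytoskeleton and chaperone classes were as follows. *CSLD2*, the pectin methylesterase inhibitor gene *AT1G11362* (3.26 and 2.81) and *PGIP2* (2.96 and 2.72), whose product inhibits fungal polygalacturonases, led the cell wall genes. *VDAC2*, a mitochondrial porin gene, had 3.19 and 2.52 at 14 bp downstream, and *AT2G25520*, of the drug/metabolite transporter family, 2.497 and 2.71. In the cytoskeleton class the kinesin gene *AT4G39050*, given above, ranked first, followed within 1000 bp of a TSS by the formin gene *FH4* (2.80 and 3.01), *AT1G27100* (2.72 and 2.45) and the kinesin gene *ATK3* (2.90 and 2.35). The neighbouring chaperone genes *HSC70-1* (2.52 and 2.88, at −5 bp) and *Hsp70-2* (2.52 and 2.40, at −80 bp) each had a site of their own, and heat shock genes in all were 9 of 293, or 3.07%, with *SLT1* (2.25 and 2.19) as the next.

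Further classes were redox (11 of 289, 3.81%; *ACHT2*, 2.96 and 2.60, *ATGSTF13*, 2.54 and 2.48, and *TRX5*, 3.10 and 2.27), photosynthesis and plastid (8 of 210, 3.81%; *HCF153*, 2.80 and 2.72, *AT1G51400*, 2.77 and 2.27, and *RRF*, 2.48 and 2.43) and cytochrome P450 (9 of 248, 3.63%; *CYP706A4*, 2.54 and 2.72, *AT1G73340*, 2.80 and 2.43, and *CYP71B2*, 2.21 and 2.32). Of these, the summit at *AT1G51400* lay within *AT1G51402*, and that at *CYP706A4* in the 3′ UTR of *AT4G12310*. Disease resistance genes were 13 of 367 (3.54%), with *AT1G72950* of the TIR-NBS type (2.67 and 2.76), *PR4* (2.44 and 2.85) and *AT4G25780* (2.32 and 2.74). The summit of the *PR4* site was at −364 bp in replicate 1 and −1674 bp from the nearest TSS in replicate 2. Ubiquitin and proteasome genes were 52 of 1619 (3.21%), with *SK18* (2.64 and 3.26) and the F-box gene *AT4G10820* (2.96 and 2.60) after *AT1G11020*. Genes of no known function were 138 of 4047 (3.41%), with *AT2G30930* (3.39 and 2.64) and *AT5G09976* (3.26 and 2.60) after *AT5G11000*.

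The lowest shares were those of 4 classes that act on RNA, ribosomes and organelles. Pentatricopeptide repeat proteins, which process organelle RNA, had 2 of 279 genes (0.72%): *AT5G04780* (2.85 and 2.65) and *AT5G13770* (2.48 and 2.36). The *AT5G13770* summit was in the 3′ UTR of *AT5G13760*. Mitochondrial genes had 2 of 143 (1.40%), with *MTM1* (2.38 and 2.76) within 1000 bp, and ribosomal proteins 6 of 344 (1.74%), with *AT1G70190* (3.22 and 3.001), *RPL24A* (2.90 and 2.15) and *AT3G16780* (2.35 and 1.94). RNA-binding and splicing genes had 10 of 418 (2.39%), with *AT4G14342* (2.87 and 2.76) and *RBP47C* (2.70 and 2.27) after *AT3G14100*. At shared sites these classes also fell under the 9.63% of all genes, at 2.51%, 5.59%, 3.78% and 5.98%.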

How the data were processed

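Peak lists of 4 ChIP-seq libraries (BRIP2-GFP and BRIP1-GFP in *brm-1*, 2 replicates each) were used. Tools credited to the submitters' notes are deepTools, Bowtie and MACS2 (version 2.1.1), and their build is TAIR10. Per the file layout, the authors deposited 1 narrowPeak list per library, with fold (a ratio of pileup over control), −log10 p and −log10 q values, a score that was not used, and the summit offset. The peak coordinates lay within the chromosome lengths of the TAIR10.1 reference, from which sequences and RefSeq genes were taken. Plastid peaks (2, 3, 6 and 7 in BRIP2-GFP and BRIP1-GFP replicates 1 and 2) were left out.

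Pileups were solved from the deposited fold, taken as (pileup + 1)/(control + 1), and the Poisson −log10 p; 99.9% in each library came out within 0.05 of a whole number. Read totals are not given in the sources used here. Each summit was assigned to the nearest TSS of 27444 protein-coding and 326 microRNA genes. Shares carry 95% Wilson intervals and differences 95% Newcombe intervals, which cover counting error over sites only: sites are not replicates of a condition, and nothing in the labels says that the libraries came from separate plants beyond their replicate names. No p-values were computed. The scripts were tested on simulated peaks (Python 3.11.15, scipy 1.17.1).

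Named genes were the nearest genes of the 12 sites of best mean rank of fold over the BRIP2 libraries, of the 6 best sites with no BRIP1 peak within 10 kb, up to 3 per class with a summit within 1000 bp of the TSS, all microRNA and SWI/SNF subunit genes, genes with 3 or more sites, and 4 sites on either side of the overlap rule. The members, gene classes and motif lists were chosen with earlier results of these data known. Alternatives were −log10 q of at least 10, reciprocal overlap of 50%, summits within 150 bp, no BRIP1 peak within 500 bp, lists of equal length, each library left out, the other replicate's summit, bands of fold, every annotated gene, and motif windows of 50 and 150 bp each side.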

Additional observations from a re-analysis of the deposited data

How the results depend on the processing

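The excess of member summits within 500 bp of a TSS kept its direction under every alternative run, and its interval reached zero only for BRIP2 peaks with a −log10 q of at least 10 (9.33 points). With each library left out it ran from 13.6 to 20.3 points. The number of sites depended on the thresholds: 102 sites (3.73% of replicated peaks, 101 genes) at that q, and 204 (7.10%, 203 genes) with lists of equal length. Leaving out a library gave from 1290 to 2953 sites, 23.5 to 42.8% of peaks and 1260 to 2786 genes, with 2344 sites and 2217 genes without BRIP1 replicate 2 and 2953 sites and 2786 genes without BRIP2 replicate 2. The percentage was 26.4% at 50% reciprocal overlap, 24.4% for summits within 150 bp and 20.1% with no BRIP1 peak within 500 bp.

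The intergenic difference had an interval that included zero at −log10 q of 10 (−7.38 points) and for a fold of 2.5 to under 3.0 (−3.87). The downstream difference did so at 50% reciprocal overlap (3.11), with lists of equal length (4.42), with every annotated gene (3.20) and in the bands of fold (1.31, 4.75 and 10.4). Of 15 motifs, 6 had a difference clear of zero, against 3 with 50 bp each side and 7 with 150 bp. At 150 bp TTGACT was the added one (3.16 points, 0.09 to 6.31). In comparisons chosen after the data had been seen there were 3, 2 and 2 in the bands of fold, 1 within 500 bp of a TSS and 5 farther out. Reversed signs in the bands were those of the G-box (3.90, 2.01 and 2.74), TATAAA (−0.76, fold 2.5 to under 3.0) and TGTCTC (5.29, fold 3.0 and over). No paired analysis was possible because the results come from peak lists with no test over samples. The cause of these changes was not tested. Read totals are not given in the sources used here, so the part of depth in the BRIP1 calls was not tested.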
